A study of Mus musculus with 8 samples.

Results

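Foxp3, Gpr83, Ctla4, Nrp1, Lrrc32, Capg, Klrg1, Swap70, Ebi3 and Izumo1r, 10 genes that mark or serve regulatory T cells, were followed across mouse CD4 T cells with and without the transcriptional repressor Bcl6. They were chosen by name, out of the 19938 genes that the array annotation names singly, with earlier results of the same comparison known. All 10 were found, each with 1 probe set, so no choice between probe sets was needed. Because the genes were picked with these results in view, their differences between genotypes are given as a description, and their adjusted p-values, which come from a fit over all genes, support nothing about the group as a whole.

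Messenger RNA was measured on Affymetrix whole-transcript arrays in 4 wild-type (WT) samples and 4 samples from mice with a T cell-specific conditional Bcl6-/- genotype (KO). In both groups the starting cells were sorted naive CD4 T cells, stimulated through CD3 and CD28 by antibodies over 24 hours. The medium held IL6 and IL21 and blocking antibodies against TGF beta, interferon gamma and IL-4, and the labels call the resulting cells follicular helper T (Tfh) cells. The Cre driver, the strain and the age of the mice are not given in the sources used here. Whether each sample is a mouse of its own is not stated in the labels; p-values therefore reflect the spread among these arrays alone, and that spread may be technical.

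Regulatory T cells restrain other immune cells, and Foxp3 is the transcription factor that defines them. Most arise in the thymus, and others can be induced from naive CD4 T cells by TGF beta together with IL-2, signals that IL-6 opposes. The other genes followed here have roles at the cell surface (Gpr83, Ctla4, Nrp1, Lrrc32, Klrg1, Izumo1r), in a secreted cytokine (Ebi3) or in the actin skeleton (Capg, Swap70).

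Values are log2 signals, so a difference of 1 is a doubling, and they compare 1 gene between arrays, never different genes with each other. To be tested, a gene had to exceed the 40th percentile of all genes in 4 or more arrays. Of the 10 genes, 8 were tested, Ebi3 passed that level in 3 arrays and Klrg1 in none. Bcl6 itself, the targeted gene, was higher in the arrays labelled KO, 9.15 ± 0.0497 against 8.77 ± 0.123 (SD, n = 4), with limma adjusted p = 0.0307, and since the place of its probe set relative to the deleted exons is unknown, the value is no check on genotype. The Bcl6 call was lost without each of 5 arrays (WT replicates 3 and 4, KO replicates 2, 3 and 4; limma adjusted p from 0.06 to 0.112), without the filter (0.0595) and with the replicate number as a block (0.0614). KO replicate 1 stood apart: its median deviation from the group mean was 0.115, against 0.04 to 0.075 in the other KO arrays, and the array closest to it was WT replicate 3. The T cell markers fixed for the check were all above the filter (9 of 9 on the array), as were the 10 Tfh markers. Of the defining markers of B, myeloid and dendritic cells, Ms4a1, Cd79a, Lyz2, Csf1r, Itgax and Flt3 lay below it in all 8 arrays. Other markers of these lists passed the filter: 3 of 11 on the array for B cells, 4 of 14 for myeloid cells and 4 of 12 for dendritic cells. Cd79b, Cst3 and Bst2 were among them, so the markers do not show that such cells were absent.

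The sequence around Foxp3 is shown because Foxp3 defines the lineage and because Bcl6 is known to bind sites that resemble those of STAT factors, whose core is TTCNNNGAA. RefSeq (GRCm38.p6) gives windows before the start for 8 of the 10 genes, 9 windows in all, and Lrrc32 and Klrg1 are not among them. The 250 bases before the first start of Foxp3, chrX:7579426-7579675 on the plus strand, hold no such core:

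Foxp3, upstream of the first start: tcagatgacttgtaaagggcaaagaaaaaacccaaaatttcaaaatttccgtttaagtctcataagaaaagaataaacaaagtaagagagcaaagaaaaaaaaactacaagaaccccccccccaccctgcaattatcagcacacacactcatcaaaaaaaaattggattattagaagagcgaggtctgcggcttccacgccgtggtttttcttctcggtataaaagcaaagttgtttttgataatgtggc

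Foxp3 has a second annotated start, and the 250 bases before it hold 1 core, with 130 bases between its end and that start. It is shown at chrX:7580334-7580363 on the plus strand with the core in capitals:

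Foxp3, before the second start: gagctctgttTTCCAAGAAcgggcattagt

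The site shown does not overlap the other motif searched. As a pattern, TTCNNNGAA reads the same on both strands, and it was found in 7.02% of the 32851 windows of this length. It was absent from the windows of the other 7 genes, Gpr83 included. The forkhead core TGTTTAC, searched on both strands, was found in 1 of the 9 windows, that of Swap70, against 3.17% of all windows. These matches describe letters only and say nothing of binding in these cells.

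The genes fell into 3 patterns. Gpr83, Foxp3 and Lrrc32 were lower in the KO arrays, with no overlap between the groups, and of these Gpr83 alone passed the test. Nrp1 was higher in the KO arrays on average, with overlap and without passing. Ctla4, Capg, Swap70 and Izumo1r differed by at most 0.11, and Klrg1 and Ebi3 were too low to be tested.

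**Figure D1:**
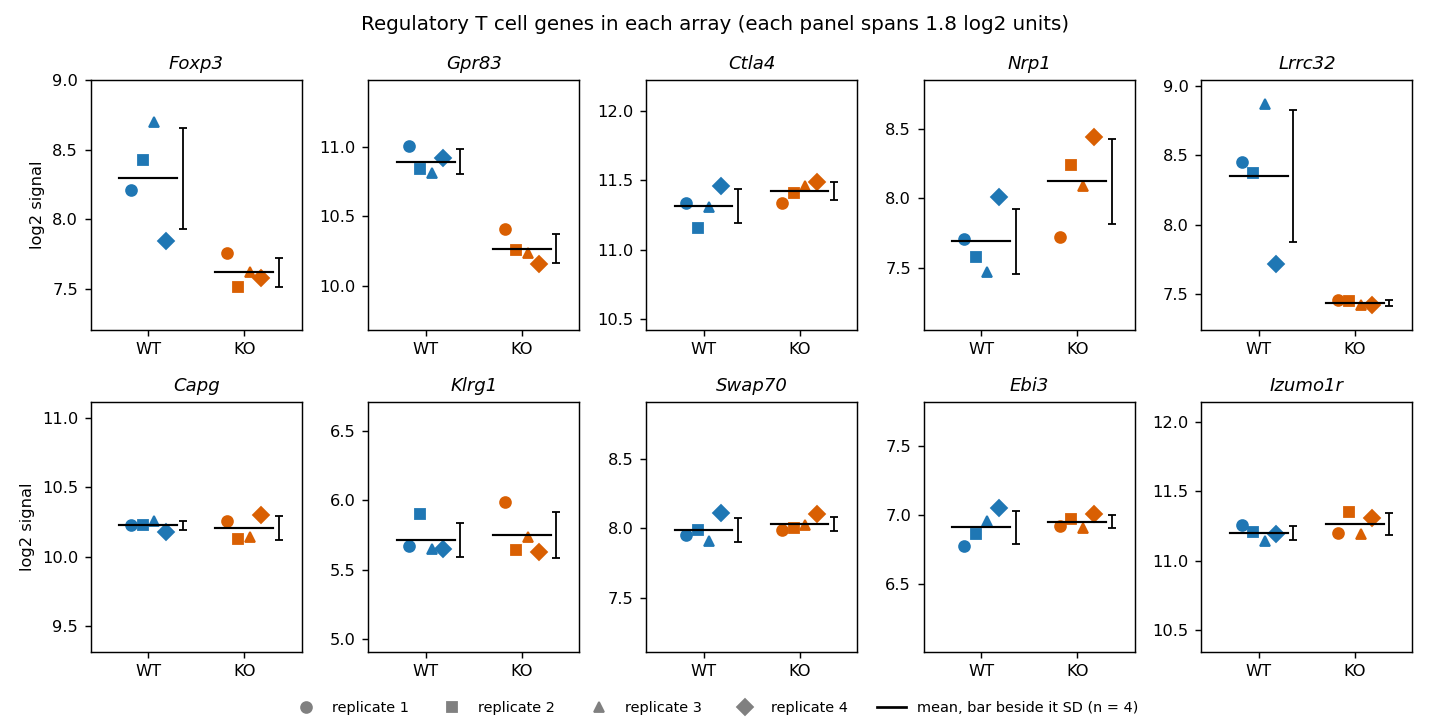
Log2 signal (vertical axis) of the 10 genes in the 4 WT (blue) and 4 KO (orange) arrays; marker shape gives the replicate number, the line the mean and the bar beside it the SD. Gpr83, Foxp3 and Lrrc32 do not overlap between the groups, and WT replicate 4 (diamond) lies nearest to the KO arrays for Foxp3 (7.84) and Lrrc32 (7.72).

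Foxp3 stood at 8.21, 8.43, 8.70 and 7.84 in WT replicates 1 to 4 and at 7.76, 7.51, 7.62 and 7.58 in KO replicates 1 to 4. The WT arrays spread over 0.86 and the KO arrays over 0.25, and the lowest WT array, replicate 4, lay just above the highest KO array, replicate 1. The means were 8.30 ± 0.364 in WT and 7.62 ± 0.105 in KO (SD, n = 4). KO was lower by 37.5% on the linear scale, a log2 difference of -0.68 ± 0.153 (SE) that was the ninth lowest of the 11998 tested genes and did not pass the threshold of 0.05 (limma adjusted p = 0.0653). In bulk samples such a difference cannot tell fewer Foxp3-expressing cells from less Foxp3 RNA in each.

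Lrrc32 encodes GARP, which holds latent TGF beta on the surface of activated regulatory T cells. Its signal was 8.45, 8.37, 8.87 and 7.72 in WT replicates 1 to 4 and 7.46, 7.45, 7.42 and 7.42 in KO replicates 1 to 4. The 4 KO arrays sat within 0.04 of each other, while the WT arrays covered 1.15, with replicate 3 highest and replicate 4 lowest, as for Foxp3. The KO values lay close to the array medians of 7.35 to 7.42, and those of Foxp3 (7.51 to 7.76) little above them. Whether they are background signal was not tested, so neither the narrow KO spread nor the size of these differences need measure transcript. The difference of -0.92 ± 0.190 (SE, limma adjusted p = 0.0519) was the third lowest of all 11998 tested genes and fell just short of the threshold.

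Gpr83 encodes a G protein-coupled receptor that is abundant in regulatory T cells and is also present in naive conventional T cells. Its signal was 11.01, 10.84, 10.81 and 10.92 in WT replicates 1 to 4 and 10.41, 10.26, 10.24 and 10.16 in KO replicates 1 to 4. Every KO array lay below every WT array, and the spread inside each group (0.2 in WT, 0.25 in KO) was smaller than the gap between them. Gpr83 fell from a mean of 10.90 (SD 0.0896) to 10.27 (SD 0.104), by 35.3% on the linear scale. The log2 difference was -0.63 with an SE of 0.0660 (limma adjusted p = 0.00337).

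Gpr83 was thus the only one of the 8 tested genes past the threshold, against 1.18% of all tested genes (141 of 11998; 73 or 0.608% were higher in KO and 68 or 0.567% lower, or 48 and 29 with arrays centred on their medians). The groups did not overlap, with KO lower, in 3 of the 8, against 7.62% of all tested genes. Since the genes were chosen with these values known, the shares set the scale and are not evidence about the group. The median difference of the 8 genes was 0.01, with 4 differences on either side of 0, against -0.02 over all tested genes.

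Of the other surface receptors among the 10 genes, Nrp1, Ctla4 and Izumo1r were not lower in KO on average. Nrp1, neuropilin-1, a co-receptor for semaphorins and VEGF that marks thymus-derived regulatory T cells, stood at 7.71, 7.58, 7.47 and 8.01 in WT replicates 1 to 4 and at 7.72, 8.24, 8.09 and 8.44 in KO replicates 1 to 4. WT replicate 4 was above KO replicate 1, so the groups overlapped. The difference was 0.43 ± 0.154 (SE, limma adjusted p = 0.203), opposite in sign to that of Foxp3.

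Ctla4 encodes the inhibitory receptor that competes with CD28 for shared ligands. It ran from 11.16 to 11.46 in the WT arrays and from 11.34 to 11.49 in the KO arrays, a difference of 0.11 with a 95% interval of -0.04 to 0.26 (limma adjusted p = 0.483). Izumo1r, also called folate receptor 4, is found on regulatory and on Tfh cells. It ran from 11.14 to 11.26 in WT and from 11.19 to 11.35 in KO, a difference of 0.06 with an interval of -0.06 to 0.18 (limma adjusted p = 0.64). Izumo1r is the next gene to Gpr83 on chromosome 9 in the RefSeq order, with 0 annotated genes between them, and the signal of one fell while that of the other was nearly level.

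The 2 actin regulators had the smallest differences between the groups among the 8 tested genes. Capg caps the ends of actin filaments, and its values ran from 10.18 to 10.26 in WT and from 10.13 to 10.30 in KO, a difference of -0.02 with a 95% interval of -0.13 to 0.10 (limma adjusted p = 0.927). Swap70, a phosphoinositide-binding activator of Rac, ran from 7.91 to 8.11 in WT and from 7.99 to 8.10 in KO, a difference of 0.04 with an interval of -0.08 to 0.16 (limma adjusted p = 0.82). The intervals of Ctla4, Izumo1r, Capg and Swap70 do not reach a drop of the size seen in Gpr83.

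Ebi3 lay around the filter level, which was 6.89 to 7.14 over the arrays, and Klrg1 lay well below it. Ebi3, a subunit of the cytokines IL-27 and IL-35, ran from 6.78 to 7.05 in WT and from 6.91 to 7.01 in KO. Klrg1, an inhibitory receptor for cadherins found on differentiated T cells, ran from 5.65 to 5.90 in WT and from 5.63 to 5.99 in KO. The groups overlapped fully in both, and at these levels a difference in transcript need not show as one in signal.

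**Figure D2:**
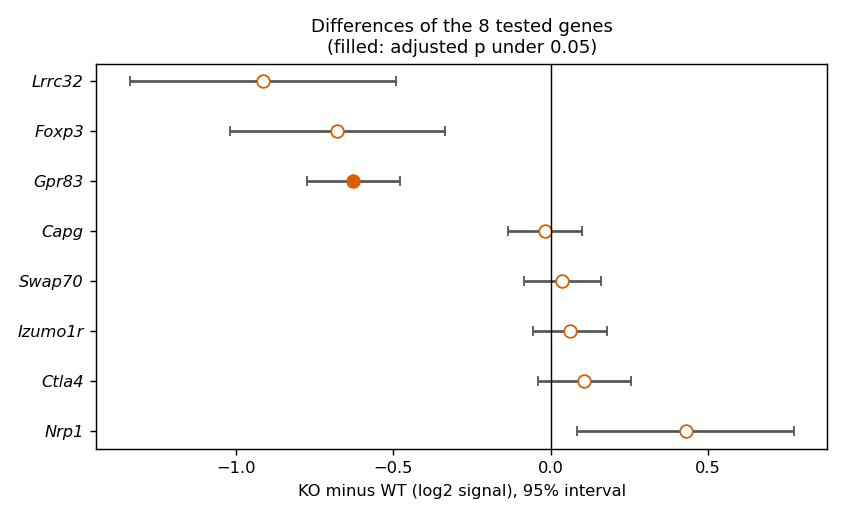
Difference between KO and WT in log2 signal (horizontal axis) for the 8 tested genes, with 95% limma intervals; filled points have an adjusted p under 0.05. Gpr83 is the only filled point, at -0.63 with an interval of -0.77 to -0.48, while those of Foxp3 (-1.02 to -0.34) and Lrrc32 (-1.34 to -0.49) are wider.

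Among the fits with 1 array left out, the calls for Foxp3 and Lrrc32 turned on 2 arrays. With all 8 arrays kept they also changed with the variance model. Lrrc32, though not Foxp3, also passed after another quantile normalization (limma adjusted p = 0.0445) and with the filter at the 50th percentile (0.0396). With KO replicate 1 left out, limma gave Foxp3 a difference of -0.72 (adjusted p = 0.0307) and Lrrc32 one of -0.92 (0.0313), and Nrp1 passed as higher (0.56, adjusted p = 0.0288). With Gpr83, 4 of the 8 were then called, against 6.47% of all tested genes, and 3 of them were lower, against 2.62%. With WT replicate 4 left out, limma gave Foxp3 a difference of -0.83 (adjusted p = 0.0192) and Lrrc32 one of -1.13 (0.00517), while Nrp1 did not pass (0.138). Then 3 of the 8 were called, all lower, against 0.892% of all tested genes called and 0.442% called lower. Without any one of the other 6 arrays Gpr83 was the only call, and Foxp3 had adjusted p from 0.119 to 0.215. Gpr83 passed in each of the 8 fits, with adjusted p of at most 0.0249.

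**Figure D3:**
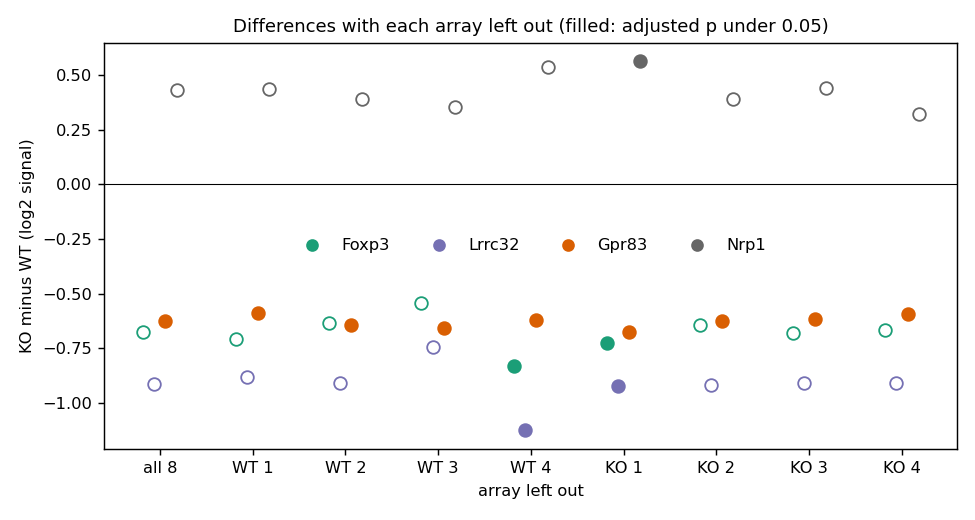
Difference between KO and WT in log2 signal (vertical axis) for 4 genes with all 8 arrays and with each array left out in turn (horizontal axis); filled points have a limma adjusted p under 0.05. Gpr83 is filled throughout, between -0.68 and -0.59, and Foxp3 and Lrrc32 are filled without WT replicate 4 or KO replicate 1.

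The arrays also differed within a genotype, which uses no contrast between genotypes. Foxp3 and Lrrc32 deviated together: over the 8 deviations from the genotype means, which hold 6 free values, Pearson's r was 0.91. This rests mainly on the WT arrays (r = 0.95 over 4), since Lrrc32 hardly varied in KO. Ikzf2, which encodes Helios, a factor of thymus-derived regulatory T cells and a gene singled out after its values were seen, ordered the WT arrays as Lrrc32 did: 7.44, 7.39, 7.98 and 7.09 in WT replicates 1 to 4, and 6.89 to 6.99 in KO. Its deviations correlated with those of Lrrc32 at 0.94 and of Foxp3 at 0.85. These values too come from the WT arrays: with Foxp3, r was 0.92 over the 4 WT arrays and -0.66 over the 4 KO arrays. With Lrrc32, r was 0.95 in WT and 0.26 in KO. The difference of Ikzf2 between genotypes was -0.54 ± 0.151 (SE, limma adjusted p = 0.115), with no overlap. It was above the filter level in 6 of the 8 arrays. Among 11285 tested genes ranked by likeness of their deviations to those of Foxp3, Lrrc32 was 36th and Ikzf2 119th. Other genes thus followed Foxp3 more closely than these did.

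Gpr83 ordered the WT arrays otherwise. WT replicate 3, the highest for Foxp3, Lrrc32 and Ikzf2, was the lowest WT array for Gpr83, and the deviations of Gpr83 and Foxp3 had r = -0.24 over the 8 arrays. Within the groups r was -0.64 over the 4 WT arrays and 0.76 over the 4 KO arrays, where the values of both genes spread over 0.25. Nrp1 and Swap70 deviated against Foxp3 (r = -0.77 and -0.78), Ctla4 at -0.65, Izumo1r at -0.41 and Capg with it at 0.45. These correlations are descriptions over 8 arrays that also share RNA input, processing and whatever else sets an array apart.

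**Figure D4:**
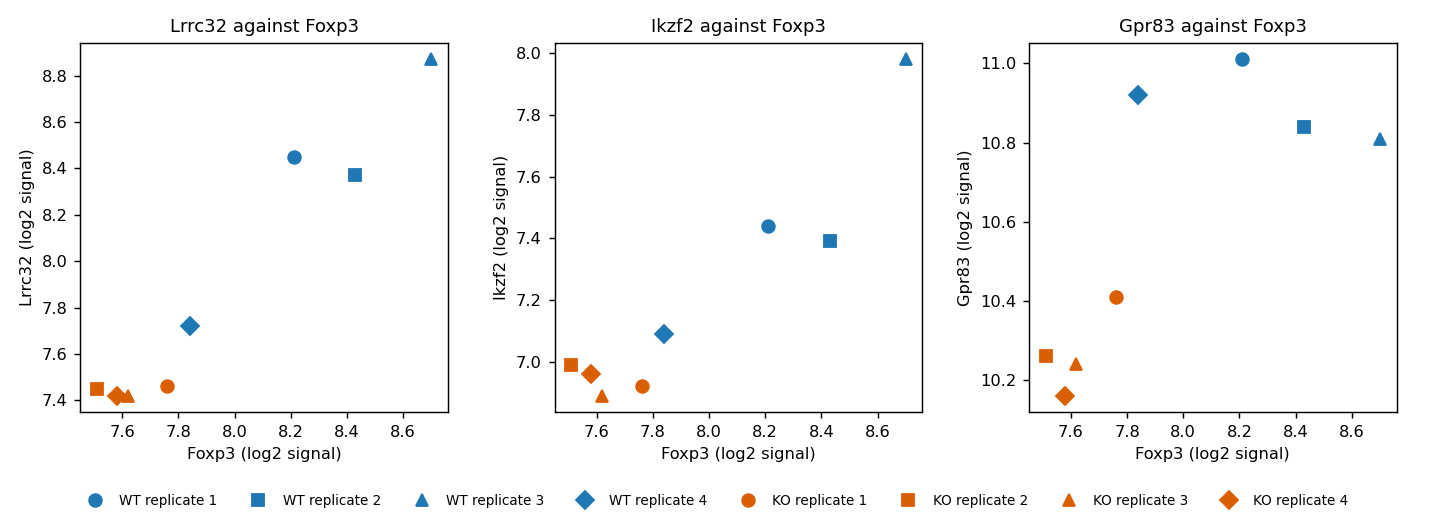
Lrrc32, Ikzf2 and Gpr83 (vertical axes, log2 signal) against Foxp3 (horizontal axis, log2 signal), 1 point per array, blue for WT and orange for KO, with marker shape for the replicate number. Lrrc32 and Ikzf2 rank the WT arrays with replicate 3 highest and replicate 4 lowest, as Foxp3 does, whereas Gpr83 separates the groups at 10.41 and 10.81 without following Foxp3 inside the WT group.

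Among 11285 tested genes other than predicted genes, small RNAs and receptor segments, the 5 whose 8 array values were most like those of Foxp3 were Gstt3, a glutathione transferase gene (r = 0.98), Lrrc32 (0.97), Ppp1r18 (0.97), Arid1a, a chromatin remodelling subunit (0.97), and Ndrg1 (0.97). Gpr83 ranked 616th for likeness to Foxp3 (r = 0.76). The 5 most like Gpr83 were Bach2, a repressor of effector differentiation (0.99), the clock output factor gene Dbp (0.98), Ccm2 (0.98), Cemip2, a cell-surface hyaluronidase gene (0.98), and the diacylglycerol kinase gene Dgkz (0.98). Likeness to Gpr83, which separates the genotypes, selects for a difference between them, so the next values are a description. Of these 5 genes Cemip2 (-0.63), Dgkz (-0.23) and Ccm2 (-0.22) fell, with limma adjusted p of 0.00636, 0.0372 and 0.048. Over the deviations alone the 5 most like Foxp3 were Nrbp2 (0.99), Hsf2bp (0.98), Pgm2 (0.97), Arid1a (0.96) and Mtss2 (0.96), with limma adjusted p of at least 0.352 for the genotype difference of each.

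A second list held 32 further genes of regulatory T cells, of which 29 were on the array and 23 tested. None passed in limma, while 12 of the 23 had an unadjusted p under 0.05, as did 1980 of the 11998 tested genes (median difference -0.05, 11 positive and 12 negative, against a median of -0.02 over all genes). Without overlap, 5 were lower (Ecm1, Ndrg1, Lag3, Nt5e and Ikzf2) and 2 higher (Il2ra and Gpm6b), against 7.62% and 3.09% of all tested genes. Ecm1, which encodes an extracellular matrix protein, had means of 11.63 ± 0.289 in WT and 10.89 ± 0.265 in KO (SD, n = 4), a difference of -0.74 (limma adjusted p = 0.0546), and Ndrg1, a gene of stress and hypoxia responses, differed by -0.35 (adjusted p = 0.0546). Il2ra, the high-affinity IL-2 receptor chain carried by regulatory and by activated T cells, differed by 0.11 (limma adjusted p = 0.27), with means of 13.24 ± 0.0387 in WT and 13.34 ± 0.0479 in KO (SD, n = 4). Tnfrsf18 (GITR) differed by -0.05 and Tnfrsf4 (OX40) by 0.06, with limma adjusted p of 0.771 and 0.611. Without KO replicate 1, 3 of the list were lower (Ecm1, Lag3 and Ndrg1) and 1 higher (Rgs1), against 6.47% of all tested genes called in that fit.

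Of 16 genes that conventional CD4 T cells express above regulatory T cells, Dapl1 rose by 0.79 (from 11.09 ± 0.106 to 11.88 ± 0.0819, limma adjusted p = 0.000605) and 15 did not pass; 1.18% of all tested genes did. Without overlap, 4 were lower in KO (Lef1, Actn1, Bach2 and Zap70, by -0.11 to -0.17) and 2 higher (Dapl1 and Il7r), against 7.62% and 3.09% of all tested genes. Il7r, the IL-7 receptor chain, which regulatory T cells hold low, stood at 8.02, 8.64, 8.64 and 9.10 in WT replicates 1 to 4 and at 9.18 to 9.49 in KO (0.76 ± 0.185 SE, limma adjusted p = 0.0804). The WT array with the least Foxp3, replicate 4, had the most Il7r, but the WT array with the least Il7r, replicate 1, was not the one with the most Foxp3. The groups did not overlap for Il7r. The median of this list was -0.01, with 8 differences on either side of 0.

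Regulators of Foxp3 itself gave 2 calls among 39 tested of 40 listed, against 1.18% of all tested genes. Tet1, an enzyme that removes DNA methylation and acts on the Foxp3 locus, rose by 0.36 (limma adjusted p = 0.0428), and Nfatc1, the calcium-dependent activator, fell by 0.24 (adjusted p = 0.0494). Of the 39 differences 27 were negative, as were 6942 of the 11998 over all genes, and the median was -0.065. The Nfatc1 call was lost without each of 7 arrays and kept without KO replicate 1 (adjusted p = 0.0215), and the Tet1 call was kept without KO replicate 1 (0.0125) or WT replicate 4 (0.0424) and lost without each of the other 6. With arrays centred on their medians neither passed (limma adjusted p = 0.0537 for Tet1 and 0.0923 for Nfatc1).

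None of the 19 tested genes of the IL-2 and STAT5 pathway, which sustains Foxp3, passed in limma (median 0.00, 10 positive and 9 negative). An unadjusted p under 0.05 was found for 5 of them, against 16.5% of all tested genes. Stat5a, a transcription factor that carries the IL-2 signal, had the smallest p of them (-0.20, limma adjusted p = 0.0776), at 11.29 to 11.45 in WT and 11.16 to 11.20 in KO, and it was called lower without KO replicate 1 (adjusted p = 0.0461). Il2, the cytokine gene that Foxp3 represses, stood at 11.21, 11.18, 11.28 and 10.92 in WT replicates 1 to 4 and at 10.64, 10.99, 10.69 and 10.59 in KO replicates 1 to 4, a difference of -0.42 (limma adjusted p = 0.0793). KO replicate 2 lay above WT replicate 4, so the groups overlapped.

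Genes that work with the 10 proteins gave 1 call among 17 tested of 29, against 1.18% of all tested genes. Il12rb2, a receptor chain for IL-12 and also for the cytokine of Ebi3 and Il12a, rose by 0.72 (9.84, 9.93, 9.84 and 10.33 in WT; 10.49, 10.59, 11.02 and 10.73 in KO; limma adjusted p = 0.042). The call was kept when KO replicate 1 (adjusted p = 0.011) or WT replicate 4 (0.0192) was left out, and lost without any other single array. Its ligand chain Il12a lay below the filter in all 8 arrays. Tgfb1, the cargo of GARP, differed by 0.04 (limma adjusted p = 0.77), and Pcsk1n, the precursor of a peptide ligand of Gpr83, differed by -0.03. Of 11 tested paralogs, none passed in limma and 5 had an unadjusted p under 0.05, against 16.5% of all tested genes. Gsn, which encodes gelsolin and is related to Capg, had the smallest p (-0.20, limma adjusted p = 0.0935), and Foxp1 differed by -0.15 (adjusted p = 0.141).

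**Figure D5:**
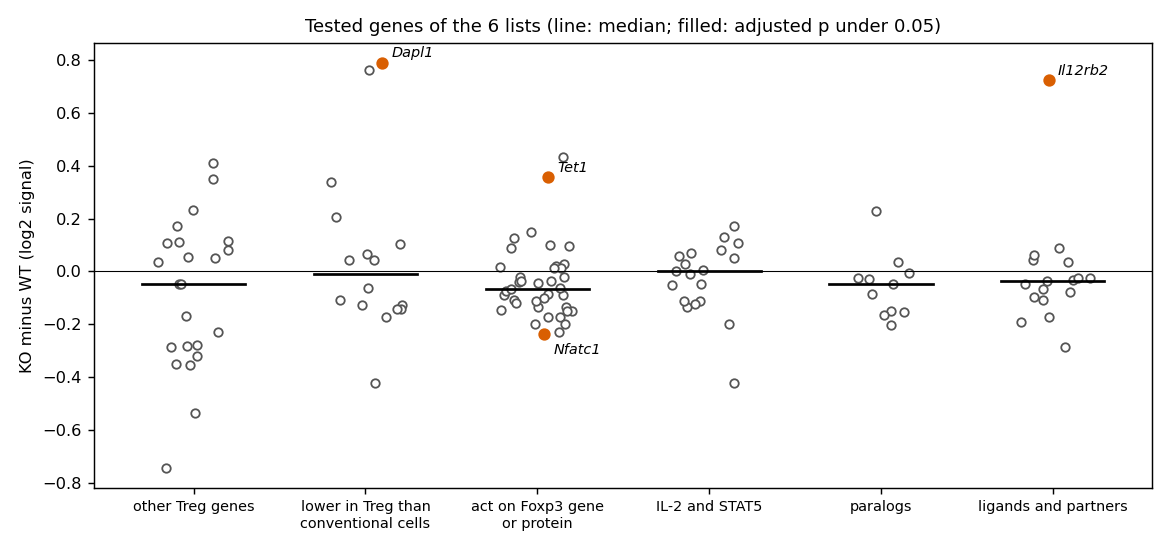
Difference between KO and WT in log2 signal (vertical axis) for each tested gene of 6 lists, with the median as a line; filled points have a limma adjusted p under 0.05. Dapl1 (0.79), Tet1 (0.36), Il12rb2 (0.72) and Nfatc1 (-0.24) are filled, and the list medians lie between -0.065 and 0.00.

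Some transcripts shared with cytotoxic cells had lower means in KO, and none passed the test. Of 10 NK cell markers 4 were tested and none passed, and 6 lay below the filter in all 8 arrays. The log2 of the summed signal of all 10 ran from 10.94 to 11.61 in WT and from 10.49 to 10.84 in KO, without overlap. That of the 4 CD8 T cell markers ran from 11.17 to 11.51 in WT and from 10.81 to 11.19 in KO, with overlap. Its members Crtam (-0.54) and Ctsw (-0.52) did not overlap between groups, while Cd8a (-0.04) and Cd8b1 (0.03) did. Over all tested genes, 7.62% were lower in KO without overlap. Nkg7, a granule protein gene, stood at 10.05, 10.79, 10.91 and 9.95 in WT replicates 1 to 4 and at 9.11, 9.55, 9.58 and 9.89 in KO replicates 1 to 4 (limma adjusted p = 0.0952), and Prf1, which encodes perforin, differed by -0.44 (adjusted p = 0.103). Nkg7 had the highest signal of the 10 NK cell markers and so weighed most in their sum. The granzyme gene Gzmb had a higher mean in KO (0.35, limma adjusted p = 0.387), with overlap. The part of these transcripts in the differences of Foxp3 and Lrrc32 was not tested. The defining NK markers Ncr1, Klrb1c and Klrd1 lay below the filter. The summed B cell markers (9.89 to 9.999 in WT, 9.84 to 10.13 in KO) and dendritic cell markers (10.73 to 10.87 and 10.67 to 10.86) overlapped, and the sum for myeloid cells ran from 12.37 to 12.45 in WT and from 12.28 to 12.33 in KO. Of the 14 myeloid markers Cst3 alone did not overlap (-0.16), against 7.62% of all tested genes that were lower without overlap. Cst3 also had the highest signal of the 14 (means of 11.87 in WT and 11.71 in KO) and so weighed most in their sum. Lyz2 (0.46, below the filter) and Ly6g (0.28) had higher means in KO, and none of the tested genes of these lists passed.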

How the data were processed

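The authors deposited 1 log2 value per probe set and array. RMA and Partek are named in the submitters' processing notes. Versions, the order of steps and the annotation are not given in the sources used here. RMA equalises distributions between arrays, which hides any shift common to most transcripts; array medians lay between 7.35 and 7.42. The 100 ng RNA input is per the labels. Of 35556 probe sets, 21789 had 1 symbol in the platform annotation, 1621 several and 12146 none listed. Names are those of the platform annotation. Of the 21789, 21698 matched the RefSeq gene table (GRCm38.p6), used to check the names and for gene order. Where a gene had several probe sets, the one with the highest average signal was used. The 40th percentile was taken over these genes in each array.

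Genotypes were tested in R 4.3.3 using limma 3.58.1 (lmFit, eBayes, two-sided, no block) over 11998 genes, with Benjamini-Hochberg adjustment and a threshold of 0.05; the steps were tested on simulated data. The number of arrays limits the precision. Deviations of same-numbered arrays correlated at 0.0117, 0.145, -0.174 and 0.31 over genes for numbers 1 to 4; since not every pair exceeded 0.1, the numbers were not taken as pairs. No 2 arrays shared more than 3.4% of their values.

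The 10 genes and the lists were chosen with earlier results of these data known. Named were the 10 genes, each list gene past the threshold (up to 4 in each direction) or else the one with the smallest p, and the 5 genes most correlated with Foxp3 and with Gpr83; others were named after their values were seen. Alternatives covered normalization, filter, variance model, probe sets, block, threshold and left-out arrays.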

Additional observations from a re-analysis of the deposited data

Results flagged for a closer look

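In WT replicate 2, Klrg1 stood at 5.90, far from the other 3 WT arrays (5.65 to 5.67), at a level below the expression filter. This was 1 of 22 groups of 4 values examined, for the 10 genes and Bcl6, and chance alone sets such an array apart in about 1 of 20 groups.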

How the results depend on the processing

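The fall of Gpr83 passed the threshold under all 16 alternatives, from -0.68 to -0.59. Foxp3 kept its direction in all 16 (-0.83 to -0.54 with 1 array left out) and passed in 4: with an intensity trend and robust prior (-0.68, limma adjusted p = 0.0355), with array weights (-0.80, adjusted p = 0.00224), without WT replicate 4 and without KO replicate 1. Array weights gave KO replicate 1 a weight of 0.176. Lrrc32 passed in 6 of 16. The count of the 10 genes past the threshold, 1, was 2 after another quantile normalization, 2 with the filter at the 50th percentile, 3 with trend and robust prior, 5 with array weights, 3 at a threshold of 0.1, and 1 to 4 with 1 array left out. Over all genes the count of 141 was 312 after another quantile normalization, 77 with arrays centred on their medians (48 higher, 29 lower), 58 without a filter, 229 with the stricter filter, 349 with trend and robust prior, 1978 with array weights, 26 and 457 at thresholds of 0.01 and 0.1, and 31 to 776 with 1 array left out. Genes of the 6 lists past the threshold numbered 4, and 2 with centring, 1 without a filter, 8 with the stricter filter, 13 with trend and robust prior, 38 with array weights and 1 to 16 with 1 array left out. The replicate number as a block left 36 of all genes, Dapl1 as 1 list gene and Gpr83 as 1 of the 10 (limma adjusted p = 0.00844; Foxp3 0.111). Capg changed sign without KO replicate 2 (0.0083) or 3 (0.005), and with 1 array left out spanned -0.0483 to 0.0083. The correlation of Foxp3 and Lrrc32 deviations, an alternative chosen after seeing the data, stayed between 0.74 and 0.95 with 1 array left out, and that of Foxp3 and Gpr83 ranged from -0.59 to 0.08. The causes of these changes were not tested.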
